A study of Mus musculus with 7 samples.

Results

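The exons described here are inner exons of mouse genes that held a smaller share of their gene's reads in young adult cerebral cortex than in embryonic cortex. They were taken from a table that gives, for each exon and sample, a score that rises as the exon's share of the reads of its gene falls. The rule used genes with at least 5 exon rows and left out the outermost row at each end. It kept exons whose mean score over the 3 adult samples was at least 2 above the mean over the 4 embryonic samples, with all 3 adult scores above all 4 embryonic scores. It found 837 exons in 540 host genes, out of 70127 inner exons in 5955 genes and 86425 exon rows in all. These 837 exons are 1.19% of the inner exons. The adult scores lay wholly above the embryonic ones in 7.02% of inner exons and wholly below them in 5.05%, and the mirrored rule for a larger share in adult found 878.

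The study measured mRNA by sequencing in cerebral cortex of C57BL/6 mice, with 4 samples from embryonic day 17 and 3 from young adults. No genotype or treatment is named for either group, and the labels give no exact age for the adults. The labels do not say if the samples are separate animals, so p-values measure only the spread between these samples, which may be technical. Between 18444272 and 23606525 reads per sample fell in genes.

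An inner exon can lose share of its gene's reads when it is spliced out more often, when transcription starts beyond it, or when transcripts end before it. In the developing cortex, neurons change the exons they use as they stop migrating, grow axons and form synapses. RNA-binding proteins such as the Ptbp, Nova, Rbfox, Mbnl and Srrm families bind near exons and raise or lower their inclusion. Many neuronal genes also have a long form and a shorter one that starts at an inner promoter.

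Several host genes hold runs of neighbouring exons that lost share together at the 5′ side, and RefSeq lists more than 1 transcription start for some of them. The promoters of Chn1, Tiam2 and Spnb4 are shown. These 3 were picked by hand from 8 genes with such a 5′ run and RefSeq starts at least 1000 bases apart. RefSeq lists 2 starts for Chn1, 3 for Tiam2 and 4 for Spnb4. The inner start shown is the one nearest to the outermost among those at least 1000 bases from it. Each sequence is the 250 bases before a RefSeq start in GRCm38.p6, written 5′ to 3′ on the gene's strand, with every CG pair in capitals. The exon positions in the rest of the text are in mm9, and positions of the 2 builds were not matched.
Chn1, outermost start, chr2:73775347-73775596, minus strand: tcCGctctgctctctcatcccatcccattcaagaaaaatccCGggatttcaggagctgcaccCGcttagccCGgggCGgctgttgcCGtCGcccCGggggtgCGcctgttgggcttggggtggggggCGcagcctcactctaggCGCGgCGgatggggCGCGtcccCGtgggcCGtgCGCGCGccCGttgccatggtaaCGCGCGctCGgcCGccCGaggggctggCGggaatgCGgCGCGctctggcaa
Chn1, inner start, chr2:73660424-73660673, minus strand: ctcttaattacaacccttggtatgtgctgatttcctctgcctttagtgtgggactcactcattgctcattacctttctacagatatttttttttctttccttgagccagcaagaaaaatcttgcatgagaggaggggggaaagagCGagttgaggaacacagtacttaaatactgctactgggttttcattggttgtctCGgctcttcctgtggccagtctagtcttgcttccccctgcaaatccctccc
Tiam2, outermost start, chr17:3396957-3397206, plus strand: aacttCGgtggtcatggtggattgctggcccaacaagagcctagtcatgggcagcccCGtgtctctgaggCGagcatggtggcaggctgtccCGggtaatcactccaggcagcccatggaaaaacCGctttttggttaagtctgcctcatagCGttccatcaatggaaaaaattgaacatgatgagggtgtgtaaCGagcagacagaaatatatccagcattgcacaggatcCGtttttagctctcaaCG
Tiam2, inner start, chr17:3482065-3482314, plus strand: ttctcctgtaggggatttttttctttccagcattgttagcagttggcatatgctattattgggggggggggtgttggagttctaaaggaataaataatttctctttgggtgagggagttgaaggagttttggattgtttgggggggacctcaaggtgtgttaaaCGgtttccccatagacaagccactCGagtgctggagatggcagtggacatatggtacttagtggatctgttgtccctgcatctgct
Spnb4 (Sptbn4 in RefSeq), outermost start, chr7:27446590-27446839, minus strand: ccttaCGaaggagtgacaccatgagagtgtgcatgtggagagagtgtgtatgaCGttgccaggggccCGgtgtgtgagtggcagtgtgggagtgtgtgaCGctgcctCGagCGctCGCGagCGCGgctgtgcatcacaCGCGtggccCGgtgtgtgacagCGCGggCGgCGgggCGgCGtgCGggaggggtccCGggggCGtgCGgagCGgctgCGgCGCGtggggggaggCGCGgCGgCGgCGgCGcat
Spnb4, inner start, chr7:27396554-27396803, minus strand: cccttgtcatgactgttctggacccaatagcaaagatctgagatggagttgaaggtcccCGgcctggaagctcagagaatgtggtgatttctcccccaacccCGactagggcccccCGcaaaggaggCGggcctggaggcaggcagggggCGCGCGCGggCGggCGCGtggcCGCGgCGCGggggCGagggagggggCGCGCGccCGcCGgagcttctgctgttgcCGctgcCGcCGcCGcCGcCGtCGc

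The motif searched was CG, which reads the same on both strands. The outer Chn1 window held 31 CG pairs and the inner one, 114923 bases further in, held 2. In Tiam2 the counts were 9 at the outer start and 2 at the start 85108 bases further in. Both Spnb4 windows were rich in CG, with 33 pairs at the outer start and 28 at the start 50036 bases further in. Across 32851 RefSeq promoter windows of the same length the median was 6, and 92.1% held at least 1 CG. The inner windows of Chn1 and Tiam2 thus lay below that median and the other 4 above it. No promoter activity was measured in these samples.

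The score is not a plain ratio. From its steps it is a variance-stabilized form of a whole number, the gene's reads divided by the exon's reads and rounded. An exon with 10% of its gene's reads had a score of 6.06 to 6.14, depending on the sample, and an exon with 1% had 14.9 to 15.0. Shares in the text are 100 divided by that whole number, so large shares come in coarse steps such as 20% and 16.7%. Reads that span a junction can count in more than 1 exon, so shares of a gene can sum to over 100%. The median sum was 1.18 to 1.21 times the gene's reads in the 7 samples.

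As chosen, the 837 exons held a median of 3.06% of their gene's reads in embryonic samples and 1.18% in adult samples. Over all inner exons both medians were close, at 4.24% and 4.25%. Sample by sample, the median over the 837 exons was 3.12%, 3.12%, 2.86% and 3.03% in embryonic replicates 1 to 4 and 1.15%, 1.23% and 1.18% in adult replicates 1 to 3. The embryonic share was higher by a median ratio of 2.52, from 1.48 at the least to 34.5 at the most. The ratio was at least 2 for 566 exons, at least 4 for 195 and at least 10 for 34. These values were used by the rule and carry no test.

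Exons at the edge of the rule show what a score difference of 2 stands for. Just inside it, the exon of Ash2l (a subunit of histone methyltransferase complexes) at chr8:26941745 went from 3.34 ± 0.558% to 2.09 ± 0.375% (here and below, mean ± SD over the 4 embryonic or the 3 adult samples). The Btbd10 exon at chr7:120495295 went from 7.90 ± 0.832% to 5.02 ± 1.47%. The exon of Sh3pxd2a, a scaffold of invasive cell protrusions, at chr19:47472306 went from 0.421 ± 0.121% to 0.114 ± 0.0628% on 1 to 7 reads per sample. Just outside it were exons of Tnk2 (0.403 ± 0.0888% and 0.0995 ± 0.0213%), Tmem201 (1.11 ± 0.292% and 0.440 ± 0.140%) and Prkcz (0.250 ± 0.0760% and 0.0630 ± 0.0338%). The excluded exons thus had larger ratios than some included ones, since the score is compressed at small shares. When the rule asked instead for an embryonic share at least 2 times the adult share, a setting chosen after seeing the data, it found 770 exons, of which 566 were among the 837.

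**Figure D1:**
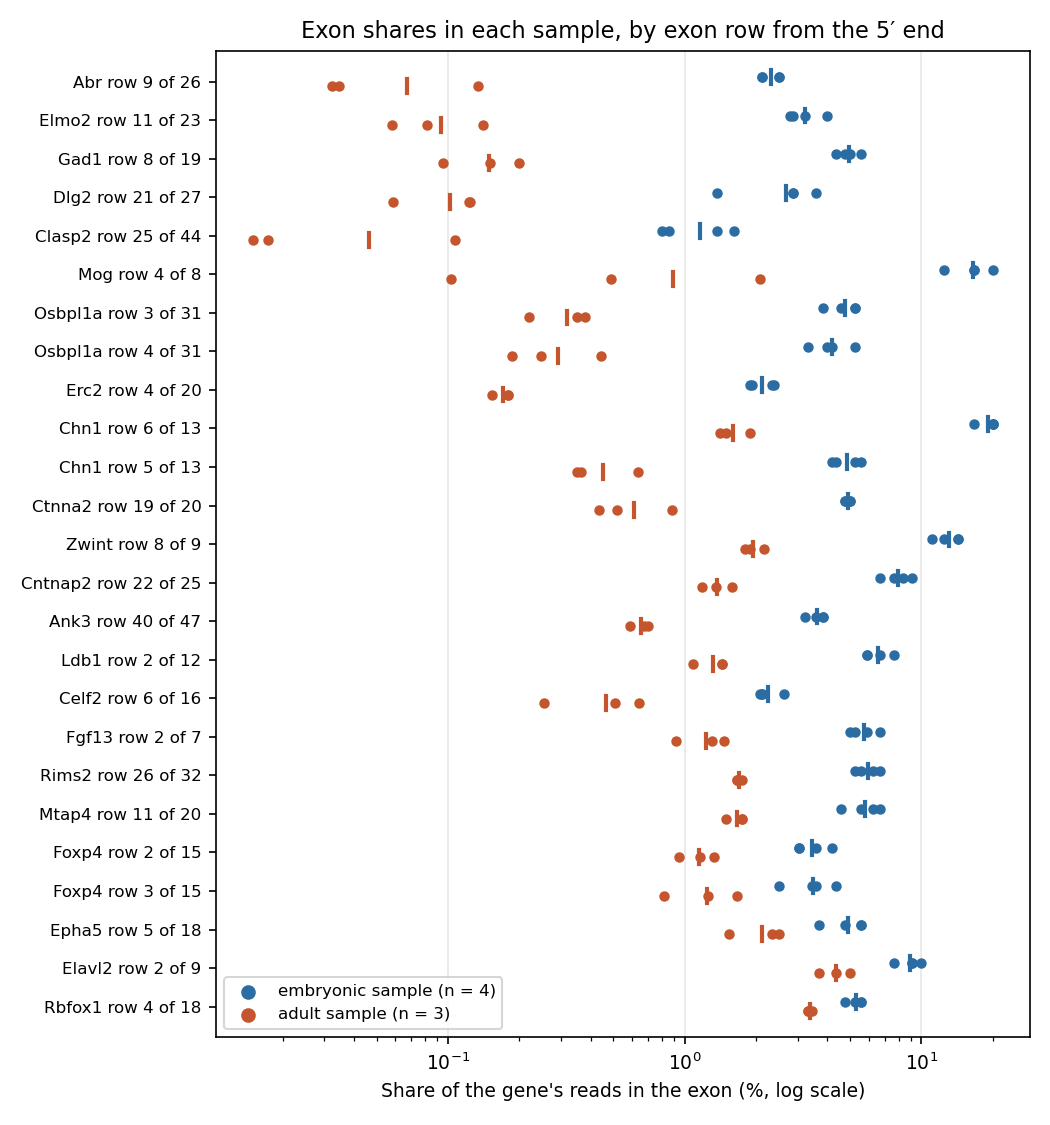
Share of the gene's reads (%, log scale) for named exons in each of 4 embryonic samples (blue) and 3 adult samples (orange), with group means as vertical ticks. Exons are named by gene and by row from the 5′ end and are ordered by the ratio of the mean shares, from 34.5 in Abr to 1.57 in Rbfox1. No adult point reaches the lowest embryonic point of its exon, which the rule fixes.

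The number of exons found changed most when adult replicate 3 was left out. The rule then found 1463 exons, which include 758 of the 837. Leaving out any other sample gave 904 to 1063. The fewest of the 837, 704, were kept without adult replicate 1. With fewer samples the groups overlap less easily, so more exons can pass. Adult replicate 3 had the highest adult share, nearest to the embryonic values, in 40.9% of the 806 exons without a tie, against 33.0% of all inner exons. For adult replicates 1 and 2 these figures were 26.4% and 32.6%, against 37.7% and 29.3% of all inner exons. The labels name no batch.

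Depth was modest for most of these exons. The median count per sample was 48.3 reads in embryonic and 21.3 in adult samples. The mean over the embryonic samples was at least 20 reads for 661 exons and under 10 for 64. The mean over the adult samples was under 10 for 243. Single samples can lie on the other side of these limits. An exon with 0 reads and an exon with 1 read could not be told apart in the table. At least 1 adult sample stood at 1 read in 64 exons. In 5 exons all 3 adult samples did, in Adcy1, Epb4.9, Rims2, Pde1a and Srpr, named after their values were seen. In Adcy1, Epb4.9 and Pde1a the exon stood at 1 read in all 7 samples, so the score moved only with the reads of the gene. For Adcy1, a calcium-stimulated adenylyl cyclase, the gene had 360 ± 33.1 CPM (counts per 1000000 reads in genes) in embryonic and 948 ± 115 in adult samples.

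Because a share has 2 terms, exon and gene reads were also set side by side, each as counts per 1000000 reads in genes (CPM). Exon CPM were lower in all 3 adult samples than in all 4 embryonic samples for 603 of the 837 exons (72.0%), against 36.8% of all inner exons. Exon reads are 1 term of the share that chose these exons, so this is a description and supports nothing. The groups overlapped for 184, and 50 were higher in every adult sample. These 2 counts were not made over all inner exons, so nothing is read from them. The median log2 ratio of adult to embryonic exon reads was -1.21, while that of the gene's reads was 0.17. For all inner exons these medians were -0.24 and -0.25. By means, 380 exons had lower reads in a gene that was also lower in adult, 365 had lower reads in a gene that was higher, and 92 had higher reads in a gene that rose more. This split was not made over all inner exons either and is a description only. In bulk tissue, fewer cells of a type and less RNA per cell cannot be told apart.

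**Figure D2:**
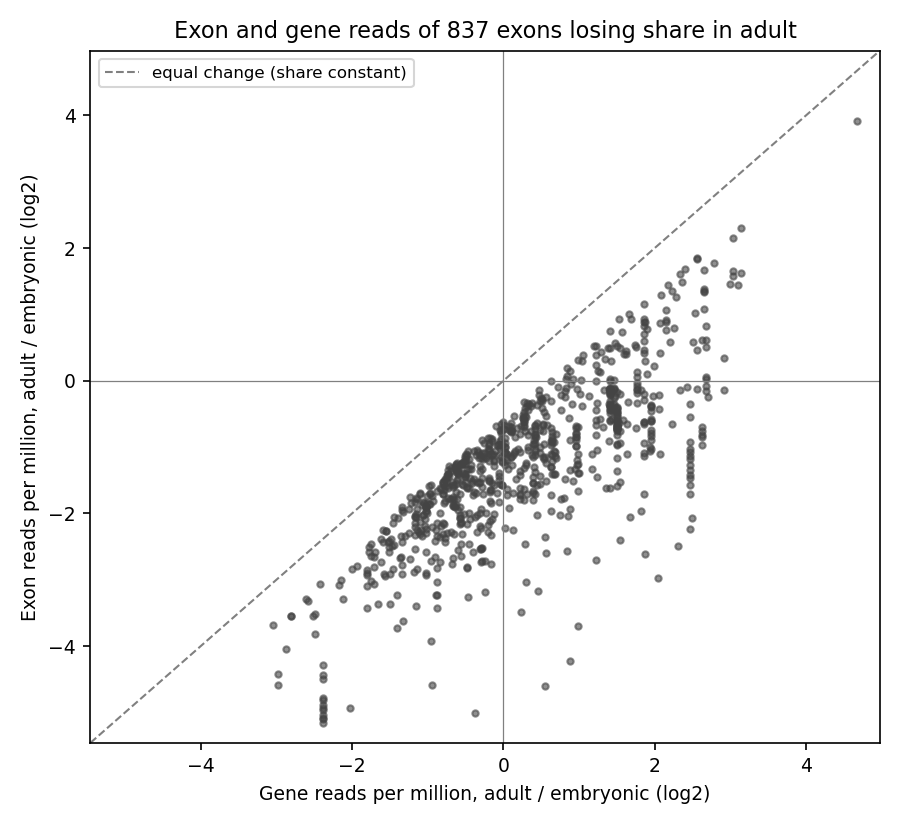
Log2 ratio of adult to embryonic mean CPM for the gene (x axis) and the exon (y axis), 1 point for each of the 837 exons. All points lie below the dashed line of equal change, which the rule fixes, and those below 0 on the y axis are the 745 exons whose own mean reads were lower in adult.

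At gene level, 233 of the 540 host genes (43.1%) were called higher in adult and 230 (42.6%) lower, by limma on the deposited gene values with Benjamini-Hochberg adjustment at 0.05. The background was 36.2% higher and 44.5% lower among the 5955 genes with inner exons, and 35.8% and 33.9% among all 22828 genes tested. Gene reads are part of the exon score, so nothing is read from these counts. The median difference was -0.00 on the log2-like scale for the host genes and 0.03 for all genes.

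The 837 exons fell into 2 arrangements, scattered single exons and runs. Single exons, with neither neighbouring row in the set, numbered 541, and 217 of these lay between rows whose scores each differed by less than 1. Another 84 formed 42 pairs of neighbours. The remaining 212 lay in 32 runs of 3 or more rows in 28 genes, of which 14 began at the first inner row on the 5′ side, 7 ended at the last inner row on the 3′ side and 11 lay inside. The outermost row, which the rule leaves out, also differed by at least 2 in 9 of the 14 runs at the 5′ side and in 5 of the 7 at the 3′ side. Most host genes, 435, held 1 such exon, 63 held 2, and 42 held 3 or more.

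**Figure D3:**
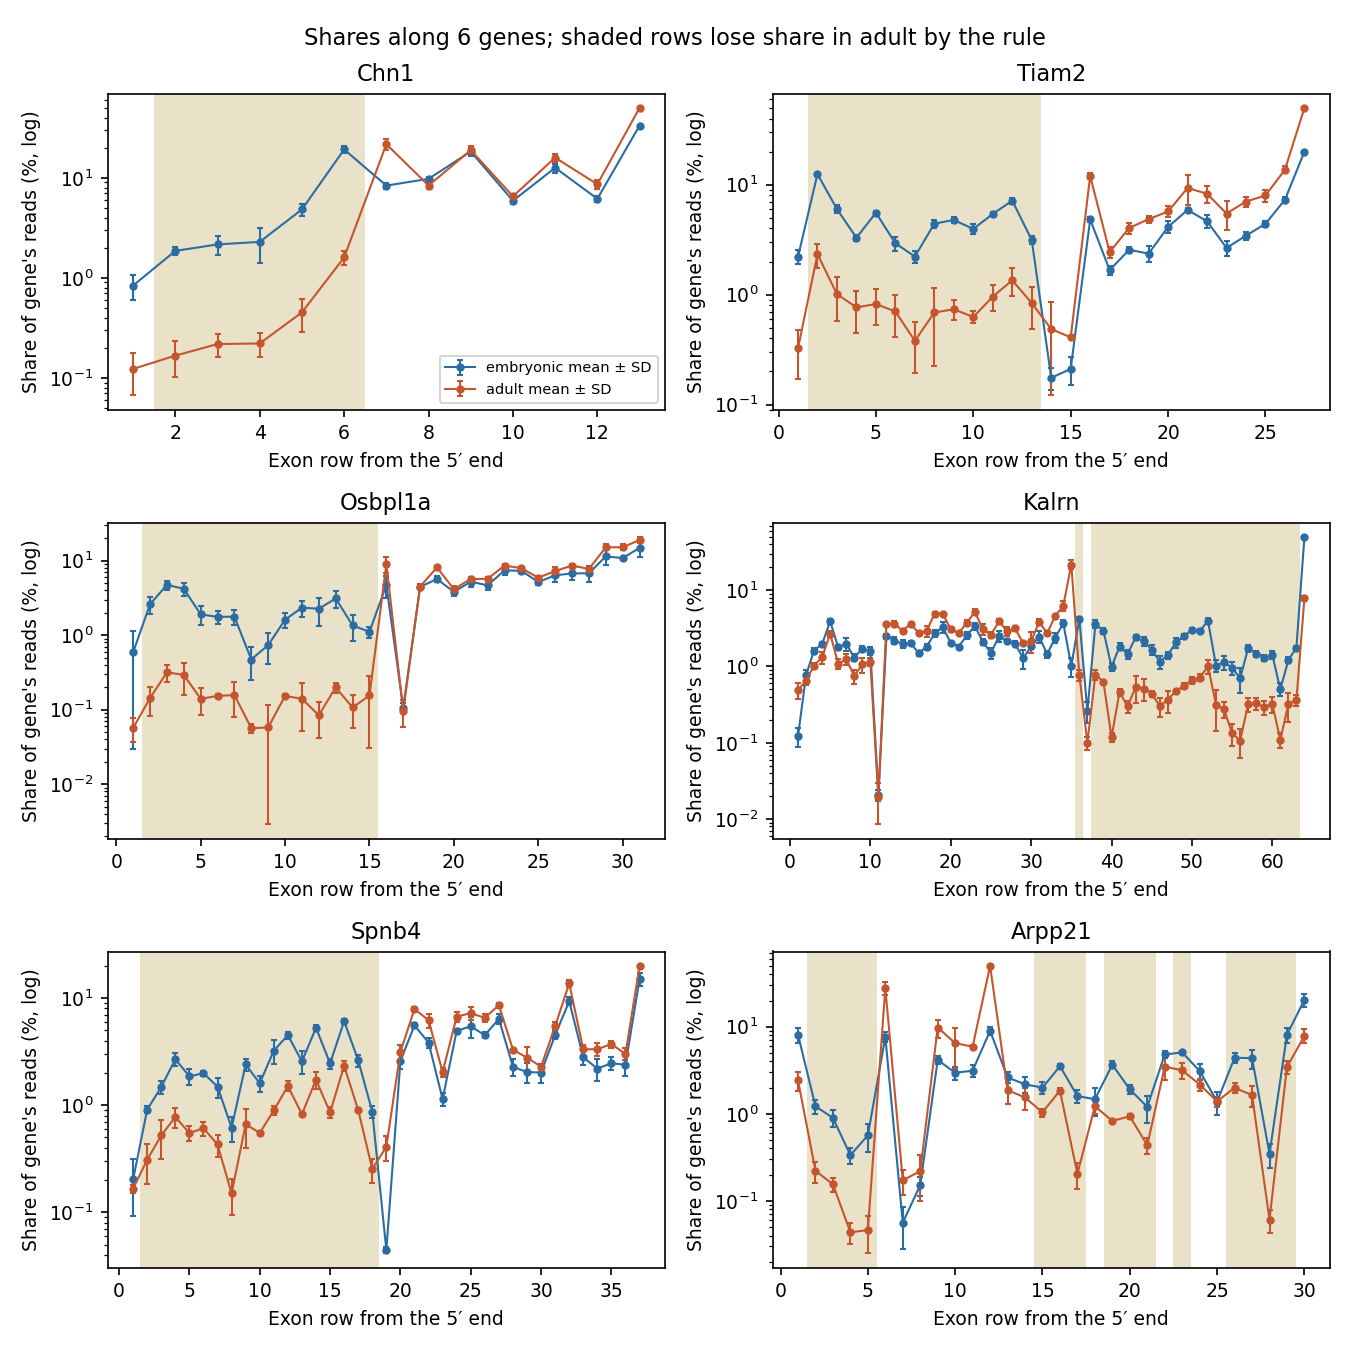
Share of the gene's reads (%, log scale, mean ± SD, lower bars shortened to stay above 0) for every exon row of 6 genes in order from the 5′ end, in embryonic (blue, n = 4) and adult (orange, n = 3) samples, with rows of the set shaded. In Chn1, Tiam2, Osbpl1a and Spnb4 the shaded run sits at the 5′ side, in Kalrn at the 3′ side, and in Arpp21 it is broken into several runs.

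Runs at the 5′ side included some of the largest differences. Chn1 encodes chimaerin, a GTPase-activating protein for Rac that has a long form with an SH2 domain and a short form without it. The Chn1 exon at chr2:73517672, row 6 of 13, held 20%, 16.7%, 20% and 20% of the gene's reads in embryonic replicates 1 to 4 and 1.41%, 1.89% and 1.49% in adult replicates 1 to 3. The embryonic samples were thus all far above the adult ones, with embryonic replicate 2 lowest of its group by 1 step of the scale. Row 5, at chr2:73544976, held 5.56%, 5.26%, 4.17% and 4.35% in the embryo and 0.366%, 0.637% and 0.352% in adult.

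Rows 2 to 6 of Chn1 summed to 30.3 ± 2.29% in embryonic and 2.65 ± 0.536% in adult samples. The next row, at chr2:73497737, moved the other way, from 8.36 ± 0.572% to 21.7 ± 2.89%. Chn1 as a gene was higher in adult, at 118 ± 2.53 CPM in embryonic and 732 ± 77.6 in adult samples. The reads of the run itself went from 35.8 ± 2.40 to 19.1 ± 1.64 CPM, so the run had fewer reads in adult while the gene as a whole was higher. Row 1, outside the rule, went the same way, from 0.838 ± 0.239% to 0.123 ± 0.0562%.

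Osbpl1a encodes an oxysterol-binding protein of late endosomes whose long form carries ankyrin repeats at its N terminus. Its row 3 of 31, at chr18:13087517, held 5.26%, 5.26%, 4.55% and 3.85% in embryonic and 0.220%, 0.379% and 0.352% in adult samples. Row 4, at chr18:13086770, held 3.33%, 5.26%, 4.17% and 4% against 0.187%, 0.444% and 0.247%. In both rows every adult sample lay far below the lowest embryonic sample.

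The Osbpl1a run covered rows 2 to 15 and summed to 29.9 ± 4.34% in embryonic and 2.15 ± 0.301% in adult samples. Its reads went from 13.6 ± 1.39 to 5.49 ± 0.8 CPM while the gene went from 46.1 ± 6.99 to 255 ± 4.55. Row 16 gained, from 4.71 ± 1.54% to 8.96 ± 2.23%. The 15 other inner rows had a median score difference of -0.56.

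Tiam2, a Rac exchange factor with a long and a short form, was chosen after its values were seen because both the run and the gene were lower in adult. Rows 2 to 13 of 27 summed to 61.4 ± 1.31% of its reads in embryonic samples and 11.2 ± 2.49% in adult samples. The gene went from 277 ± 18 to 53.0 ± 1.86 CPM and the run from 170 ± 11.2 to 5.92 ± 1.16. Row 2 alone held 12.5% in every embryonic sample and 2.33 ± 0.569% in adult. Row 16 held 4.83 ± 0.219% in the embryo and 12 ± 0.802% in adult, and was in the set that gained share.

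Spnb4 encodes βIV spectrin, a membrane skeleton protein of the axon initial segment and nodes of Ranvier that has long forms and shorter ones lacking the N-terminal actin-binding part. Its run of 17 exons, rows 2 to 18 of 37 at chr7:28182970-28227414 (first and last row start), summed to 42.7 ± 2.97% in embryonic and 13.9 ± 0.495% in adult samples. The row after it, at chr7:28181508, went from 0.0445 ± 0.00322% to 0.410 ± 0.111% and was among those gaining share. Its embryonic share stood near the floor of 1 read per sample, so the size of this gain is imprecise. Gene reads went from 108 ± 10.2 to 286 ± 20.7 CPM and run reads from 45.9 ± 2.07 to 39.6 ± 1.68. The reads of the Spnb4 run thus changed far less than those of the gene.

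Anks1b, which encodes a postsynaptic ankyrin-repeat protein, Psd, an exchange factor for Arf6, and Dclk1, a kinase with doublecortin domains in its longer forms, were also chosen after their values were seen. In Anks1b rows 2 to 13 of 26 went from 21.3 ± 3.37% to 3.56 ± 0.0250%. In Psd rows 2 to 10 of 18 went from 66.2 ± 1.5% to 19.0 ± 0.222%. In Dclk1 rows 2 to 5 of 20 went from 13.6 ± 0.881% to 5.11 ± 0.631%. All 3 genes had higher mean CPM in adult than in embryonic samples, and in all 3 the run's own CPM were lower: 17 ± 3.02 and 10.9 ± 0.574 in Anks1b, 155 ± 12.7 and 86.7 ± 8.36 in Psd, and 94.8 ± 10.2 and 47.2 ± 4.58 in Dclk1.

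RefSeq starts were compared with these runs as a feature that the rule did not use. Of the 14 genes with a 5′ run, 12 matched RefSeq by symbol, and 8 of them (66.7%) had starts at least 1000 bases apart. They were Anks1b, Arhgap32, Arpp21, Chn1, Dclk1, Dixdc1, Sptbn4 and Tiam2. Among all host genes 116 of 435 matched genes (26.7%) had such starts, and among all genes with inner exons 641 of 4844 (13.2%). No test was made, and genes with more exon rows have more chances for both. A listed start is not evidence that it was used here.

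Runs at the 3′ side include the longest of all. Kalrn encodes kalirin, a protein of dendritic spines with shorter and longer forms. It held 27 exons of the set, the most of any gene, of which 26 were consecutive, rows 38 to 63 of 64. The run summed to 47.3 ± 1.46% of the reads in embryonic and 10.8 ± 0.435% in adult samples. The last row, outside the rule, went from 50% to 7.91% on the means. Row 36, at chr16:34116308, was also in the set, at 4.22% and 0.770%, and row 35 beside it gained, from 1.02% to 21.7%.

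Kalrn reads went from 238 ± 36.6 to 673 ± 81.7 CPM while the reads of the run went from 113 ± 16.6 to 72.2 ± 7.07. Ratios within the run ranged from 3.25 to 8.43. The 35 other inner rows had a median score difference of -1.66 but did not move as 1 block. Rows 12 to 35 all had negative differences, while rows 2 to 11 and row 37 had positive ones, as in row 5, at 3.91% and 2.69%. Cntnap2, which encodes a neurexin-like protein that holds potassium channels next to nodes of Ranvier, had a shorter 3′ run of rows 22 to 24 of 25, from 32.2 ± 3.52% to 12.4 ± 0.510%. Its row 22, at chr6:47194395, held 8.33%, 9.09%, 7.69% and 6.67% in embryonic and 1.35%, 1.59% and 1.18% in adult samples. The row before it went from 0.767 ± 0.282% to 1.86 ± 0.401%. Most of Cntnap2 moved the same way as that row. The 20 other inner rows had a median score difference of -3.53, while the last row differed by 0.22.

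Arpp21 encodes a cAMP-regulated phosphoprotein that is abundant in forebrain and has short and long forms. Its 15 exons of the set did not form 1 block. Rows 2 to 5 of 30 went from 3.01 ± 0.0995% to 0.467 ± 0.0435%, and rows 26 to 29 from 17.2 ± 1.81% to 7.13 ± 0.885%, with shorter runs between. Rows 6, 9, 11 and 12 gained share, row 6 from 7.65% to 27.8% and row 12 from 8.97% to 50%. Gene reads went from 110 ± 13.7 to 398 ± 32.1 CPM, and those of rows 26 to 29 from 19.0 ± 3.76 to 28.4 ± 4.68.

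Single exons formed the larger arrangement, and several had ratios above 20. Gad1 encodes an enzyme of GABA synthesis and carries an exon known from embryonic transcripts that introduces a stop codon. The Gad1 exon at chr2:70422477, row 8 of 19, held 5.56%, 5%, 4.76% and 4.35% in embryonic and 0.0952%, 0.151% and 0.199% in adult samples. Its own reads went from 59 to 87 per embryonic sample to 6 to 14 per adult sample, with no overlap. The gene went from 67.5 ± 8.62 to 279 ± 28.6 CPM, and the row after it held 2.68 ± 0.461% and 2.52 ± 0.452%.

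Elmo2 encodes a partner of Dock proteins in the activation of Rac. Its exon at chr2:165129166, row 11 of 23, held 3.23%, 2.86%, 4% and 2.78% in embryonic and 0.0579%, 0.140% and 0.0816% in adult samples, on 48 to 68 reads against 2 to 5. The row before it held 4.66 ± 0.281% and 5.01 ± 0.251%, and the row after it went from 4.69 ± 0.893% to 3.27 ± 0.165%. The exon of Abr, a protein with both exchange and GTPase-activating domains, at chr11:76281757, row 9 of 26, held 2.5%, 2.5%, 2.13% and 2.13% in embryonic and 0.0347%, 0.134% and 0.0325% in adult samples. In both genes the ratio of means was 34.5, the largest among the 837 exons. The Abr row before it, at chr11:76282218, gained share, from 1.01 ± 0.0610% to 3.14 ± 0.250%.

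The exon of Zwint, which encodes a kinetochore protein, at chr10:72130647, row 8 of 9, held 14.3%, 12.5%, 11.1% and 14.3% in embryonic and 2.17%, 1.79% and 1.89% in adult samples. The gene went from 154 ± 8.97 to 479 ± 10.6 CPM and the exon from 20.1 ± 2.70 to 9.33 ± 0.808. The Zwint exon thus had fewer reads in a gene that was higher in adult, while row 7 held 9.77 ± 0.455% in embryonic and 12 ± 0.802% in adult samples and the last row 50% in all 7.

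The largest score difference of all, 11.2, was in Mog, which encodes a glycoprotein of the myelin surface. Its exon at chr17:37152013, row 4 of 8, held 12.5%, 16.7%, 16.7% and 20% in embryonic and 0.490%, 2.08% and 0.103% in adult samples. The adult replicates differed widely among themselves, on 5, 44 and 1 reads, with replicate 2 the highest. Overlapping transcripts could not be checked at this exon, since strand and exon ends are not given in the sources read. The row before it went from 0.376 ± 0.204% to 6.91 ± 0.928%. Mog as a gene had 16.6 ± 1.63 CPM in embryonic and 58.7 ± 26.0 in adult samples.

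Mog is itself 1 of the oligodendrocyte markers, and the cell makeup differed between the groups. All 9 oligodendrocyte markers tested were higher in adult by the same limma test, with a summed level of 61.5 to 67.8 CPM in embryonic and 4220 to 7570 in adult samples, highest in adult replicate 2. Opalin was at 0 in every embryonic sample. Markers of astrocytes (8 of 8), microglia (8 of 8), endothelium (5 of 7), choroid plexus (7 of 7) and striatum (6 of 6) were also higher in adult, and 8 of 9 progenitor markers and 3 of 5 erythroid markers were lower. Summed striatal markers stood at 86.9 to 95.8 in embryonic and 827 to 931 CPM in adult samples, and choroid plexus markers at 1.95 to 3.54 and 593 to 731. Neuronal markers were high in both, at 3160 to 3380 and 6260 to 6570, with 6 higher and 2 lower. The part of these differences in the exon shares was not tested.

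Host genes were also grouped by 6 lists of genes, which held 101 of the 540 hosts, while 439 were in none. Of genes with inner exons in each list, 28.4% of channel, receptor and synapse genes (27 of 95) and 28.4% of cytoskeleton and transport genes (25 of 88) hosted at least 1 exon of the set. The shares were 21.1% for adhesion and guidance (16 of 76), 18.5% for GTPase regulators (15 of 81), 14.6% for chromatin and transcription (12 of 82) and 14.3% for splicing regulators (6 of 42). Over all genes with inner exons the share was 9.07%. Genes with more exon rows have more chances to host one, and the lists were drawn up with earlier results known, so no list is set apart by these values. Counted per exon, 4.61% of inner exons in the GTPase regulator list, most of them in runs, 2.37% in the synapse list, 1.99% in the cytoskeleton list, 1.55% in the splicing regulator list, 1.54% in the adhesion list and 0.899% in the chromatin list were in the set, against 1.19% of all.

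Among channel, receptor and synapse genes, 45 exons lost share by a median ratio of 2.81, from 1.56 to 26.2, and 30 of them were single. Dlg2 encodes a scaffold of the postsynaptic density. Its exon at chr7:99569142, row 21 of 27, held 2.86%, 3.57%, 2.86% and 1.37% in embryonic and 0.0584%, 0.123% and 0.124% in adult samples. Embryonic replicate 4 was the lowest of its group and still far above the highest adult value. Erc2 and Rims2 encode proteins of the presynaptic active zone. The Erc2 exon at chr14:28589345 held 1.92%, 2.38%, 2.33% and 1.89% against 0.179%, 0.153% and 0.180%, on 50 to 68 and 6 to 8 reads.

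The Rims2 exon at chr15:39447815, row 26 of 32, was the last of a run of 4 and held 6.25%, 6.67%, 5.26% and 5.56% in embryonic and 1.67%, 1.67% and 1.75% in adult samples. Rims2 reads went from 39.1 ± 6.16 to 90.9 ± 8.42 CPM, and the reads of this exon went from 2.32 ± 0.485 to 1.54 ± 0.136. The row before it, at chr15:39441610, had 1 to 10 reads per embryonic sample and stood at 1 read in each adult sample. Exon CPM were lower in every adult sample for 25 of the 45 exons of this list. The share was 72.0% over the 837 exons and 36.8% over all inner exons. Of the list's 27 host genes, 19 were called higher in adult, against 43.1% of all hosts and 36.2% of genes with inner exons. As above, exon and gene reads are the terms of the score, and nothing is read from these counts.

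Among cytoskeleton and transport genes, 39 exons lost share by a median ratio of 2.76, from 1.52 to 25, and 28 were single. Clasp2 encodes a protein of growing microtubule ends. Its exon at chr9:113771554, row 25 of 44, held 0.855%, 0.8%, 1.61% and 1.37% in embryonic and 0.0150%, 0.107% and 0.0174% in adult samples, where 2 samples stood at 1 read and adult replicate 2 at 7. The rows on either side held 2.32 ± 0.224% and 3.21 ± 0.641%, and 3.53 ± 0.343% and 3.57 ± 0.128%. Neither neighbour of the Clasp2 exon lost share.

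Ank3 encodes ankyrin-G, the organiser of the axon initial segment. The Ank3 exon at chr10:69456293, row 40 of 47, held 3.57%, 3.85%, 3.85% and 3.23% in embryonic and 0.585%, 0.699% and 0.676% in adult samples. The row before it held 33.3% in every sample of both groups. The exon of Mtap4, which encodes a microtubule-associated protein of many tissues, at chr9:109966732, row 11 of 20, held 6.25%, 6.67%, 5.56% and 4.55% against 1.49%, 1.75% and 1.75%. Its reads were plentiful, 354 to 551 per embryonic and 177 to 203 per adult sample, and its neighbours differed by 0.92 and -0.62 in score.

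Among adhesion and guidance genes, 24 exons lost share by a median ratio of 2.25, from 1.55 to 10.7. Ctnna2 encodes αN-catenin, which links cadherins to actin in neurons. The Ctnna2 exon at chr6:76852281, row 19 of 20, held 5%, 4.76%, 5% and 4.76% in embryonic and 0.515%, 0.885% and 0.433% in adult samples. Here the gene was lower in adult too, at 263 ± 2.66 and 136 ± 11.2 CPM, and the exon was lower by more, at 12.8 ± 0.300 and 0.847 ± 0.406. The exon of Epha5, an ephrin receptor of growing axons, at chr5:84662608 held 4.76%, 5.56%, 5.56% and 3.70% against 1.54%, 2.5% and 2.33%, with adult replicate 1 the lowest.

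Among GTPase regulators, 86 exons lost share by a median ratio of 4.13, from 1.60 to 34.5. Only 9 of them were single, since Kalrn, Tiam2, Psd, Arhgap32, Psd3, Chn1 and Agap3 hold runs. Exons of 1 run share their gene's reads and are not independent of each other, so 86 exons here stand for 15 genes.

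Among chromatin and transcription genes, 16 exons lost share by a median ratio of 2.02, from 1.55 to 4.98. All 12 host genes were called lower in adult, against 42.6% of all hosts and 44.5% of genes with inner exons. Exon CPM were lower in every adult sample for all 16 exons, against 72.0% of the 837 and 36.8% of all inner exons. Both kinds of reads enter the score, so nothing is read from these counts. Ldb1 encodes a cofactor of LIM-domain transcription factors. Its exon at chr19:46113545, row 2 of 12, held 7.69%, 6.67%, 5.88% and 5.88% in embryonic and 1.43%, 1.43% and 1.08% in adult samples, while the outermost row beside it went from 3.26 ± 0.137% to 6.03 ± 1.1%.

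Foxp4 encodes a forkhead transcription factor, and its rows 2 and 3 of 15 were both in the set. Row 2, at chr17:48041245, held 3.57%, 4.17%, 3.03% and 3.03% in embryonic and 1.16%, 1.33% and 0.943% in adult samples. Row 3, at chr17:48025074, held 3.57%, 4.35%, 2.5% and 3.45% against 1.25%, 1.67% and 0.820%. The outermost row before them went from 2.19 ± 0.392% to 0.852 ± 0.290%, and row 4 held 3.15 ± 0.303% and 2.70 ± 0.516%.

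A loss next to a gain was seen at 57 of the 837 exons, which neighboured a row that gained share by the mirrored rule. Of the 540 host genes, 130 (24.1%) also held an inner exon that gained, against 573 of all 5955 genes with inner exons (9.62%). Shares within a gene trade off against each other, and the 57 exons were not set beside all inner exons. Nothing is read from either count. Chn1, Abr, Cntnap2 and Mog, above, are examples. Fgf13 encodes an intracellular fibroblast growth factor homologue that binds sodium channels and has several alternative first exons. The Fgf13 exon at chrX:56503976, row 2 of 7, held 5%, 6.67%, 5.26% and 5.88% in embryonic and 1.47%, 1.3% and 0.917% in adult samples. The outermost row before it went from 5.49 ± 0.295% to 1.04 ± 0.230%, and the row after it, at chrX:56387054, from 9.36 ± 0.805% to 26.1 ± 6.74%.

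Position along the gene was compared over 5 equal bins of each gene's exon rows, for the 834 exons whose gene's strand was matched. From the 5′ to the 3′ end, 1.87%, 1.2%, 1%, 0.985% and 1.05% of inner exons were in the set. The exons that gained share were also most frequent in the first bin, at 2.19%, and fell to 0.826% and 0.928% in the last 2. Over all inner exons the median score difference stayed between 0.006 and 0.044 in every bin, so the first bin held more of both kinds without a shift of its median. The first bin held 127 single exons and 62 exons of runs of 3 or more, and the last 91 and 33.

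**Figure D4:**
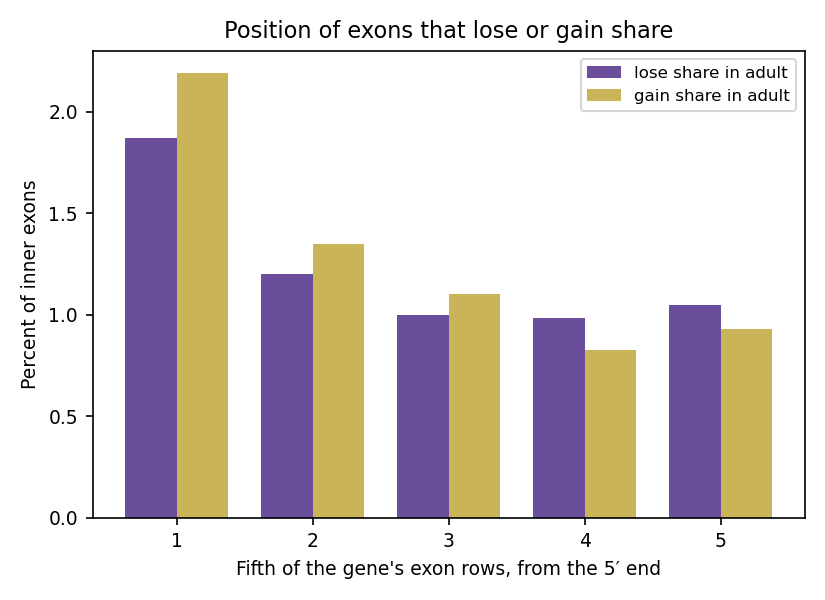
Percent of inner exons that lost (purple) or gained (yellow) share in adult, in 5 equal bins of each gene's exon rows from the 5′ end. The first bin is highest for both, at 1.87% and 2.19%, and the other bins lie between 0.826% and 1.35%.

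Genes that act on splicing were examined as the machinery behind exon choice, on gene values that the rule did not use except where a regulator hosts an exon of the set. Of 61 regulators listed, 58 were tested, and limma with Benjamini-Hochberg adjustment over all genes called 45 (77.6%) lower and 9 (15.5%) higher in adult, with 4 not called. The background over all genes was 33.9% lower and 35.8% higher. Summed progenitor markers were also lower in adult, at 858 to 1140 CPM in embryonic and 105 to 144 in adult samples. Summed astrocyte markers were higher in adult, at 264 to 279 and 5100 to 6100. The part of these cell types in the regulators' differences was not tested. The median difference was -0.96, against 0.03 for all genes. When each sample was centred on its median, which moves the median of all genes to -0.16, the counts were 47 lower and 6 higher, with Hnrnph2, Nova1 and Srrm3 no longer called higher.

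Hnrnpa1, an abundant hnRNP that mostly promotes exon skipping, fell most, from 464 ± 28.1 to 85.3 ± 5.20 CPM (difference -2.35 ± 0.08 SE on the log2-like scale, limma adjusted p = 6.80e-12). Rbm38 fell from 10.9 ± 0.988 to 2.08 ± 0.315 (-2.07 ± 0.13 SE, limma adjusted p = 5.71e-09). Mbnl3 had the same difference on at most 1.06 CPM in any sample (-2.07 ± 0.54 SE, limma adjusted p = 0.00338). Srrm4, the neuronal activator of microexons, came next, with 216, 217, 196 and 203 CPM in embryonic and 51.6, 45.8 and 47.9 in adult samples.

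The muscleblind genes Mbnl2 and Mbnl1, whose proteins promote adult splicing patterns in several tissues, rose most. Mbnl2 stood at 20.1, 18.6, 14.2 and 19.0 CPM in embryonic and 215, 170 and 188 in adult samples (3.44 ± 0.11 SE, limma adjusted p = 7.87e-12). Mbnl1 went from 29.3 ± 3.19 to 92.7 ± 12.4 (1.72 ± 0.10 SE, limma adjusted p = 3.32e-09). Raver2, whose protein binds the polypyrimidine tract protein, went from 9.34 ± 0.920 to 23.8 ± 0.628 (1.37 ± 0.10 SE, limma adjusted p = 2.38e-08). The groups did not overlap in Mbnl2, and all 3 adult samples were far above the embryonic ones.

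**Figure D5:**
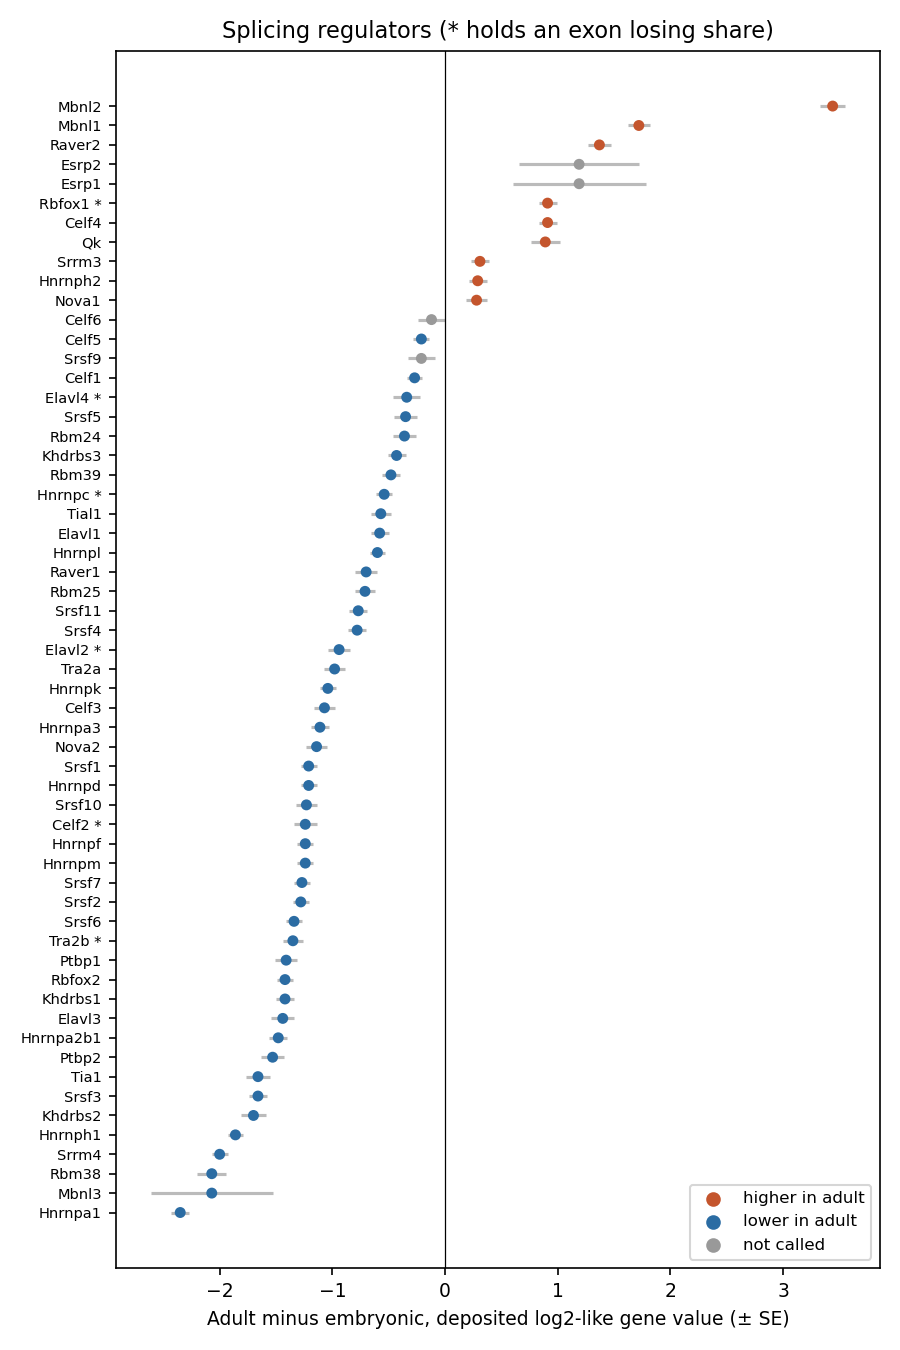
Difference in gene level (adult minus embryonic, log2-like deposited scale, ± SE) for 58 splicing regulators, coloured by the limma call, with an asterisk on the 6 that host an exon of the set. 45 lie to the left of 0 as lower calls, from -2.35 in Hnrnpa1, and 9 to the right as higher calls, up to 3.44 in Mbnl2.

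The 6 regulators that hosted an exon of the set held 1 single exon each. Celf2, an RNA-binding protein of the CELF family, had it at chr2:6805898, row 6 of 16, with 2.13%, 2.63%, 2.08% and 2.13% in embryonic and 0.505%, 0.641% and 0.254% in adult samples. The row before it gained, from 0.207 ± 0.0308% to 0.851 ± 0.194%. Elavl2, a neuronal Hu protein, had 9.09%, 9.09%, 7.69% and 10% against 4.35%, 5% and 3.70% at chr4:91042627, row 2 of 9.

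Rbfox1, a neuronal splicing factor, had 5.56%, 5.56%, 5.26% and 4.76% against 3.33%, 3.45% and 3.33% at chr16:6487912, row 4 of 18. Its gene level rose from 189 ± 4.60 to 338 ± 45.8 CPM (0.91 ± 0.08 SE, limma adjusted p = 3.14e-07), and the exon's own level was 10 ± 0.634 and 11.4 ± 1.36. Celf2 (-1.24), Tra2b (-1.35), Elavl2 (-0.94), Hnrnpc (-0.54) and Elavl4 (-0.34) were called lower by limma. The exons in Tra2b and Hnrnpc were at row 2 of 9 in each, with 4.66% and 3.07%, and 3.97% and 2.57%. The exon of Elavl4, row 8 of 9, held 1.77% in embryonic and 0.827% in adult samples.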

How the data were processed

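The members and the gene lists were chosen with earlier results of these data known. Per the labels' protocols, libraries came from trizol-extracted RNA with an Illumina mRNA kit. The submitters' processing notes name SAMtools 0.1.7a, HTSeq 0.5.3p3, Bowtie 0.12.7.0, TopHat 1.0.13, CASAVA 1.7.1 and the mm9 genome build, without saying which step used them. No source used here gives the choice of exon rows or the use of strand, and overlapping genes cannot be separated.

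The deposited gene values are variance-stabilized by the authors on a log2-like scale. The exon values deposited by the authors are a variance-stabilized score, headed as 1 over a ratio. Both columns step through whole numbers, so gene read counts were recovered, with over 99.98% of values in every column within 0.1 of a whole number. The recovered counts summed to 18444272 to 23606525 per sample. The exon's whole number matched the gene count divided by some whole number of exon reads, rounded, for 99.74% to 99.97% of 5385 to 6716 values that could show it, against 5.75% to 6.59% after gene counts were moved. An exon's reads were then taken as the gene's reads divided by its whole number, so reads of exons with large shares are approximate. Shares of exons with few reads are imprecise through counting alone.

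Genes were compared with limma 3.58.1 under R 4.3.3 (lmFit, eBayes with trend) on the deposited gene values of all 7 samples, by a two-sided test at an adjusted p of 0.05 (Benjamini-Hochberg over all genes tested). The fit dropped gene rows that stood at the column's lowest value in over 3 of 7 samples. Exon values were not tested, since they chose the members. The code was tested on simulated data.

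Named exons were the 10 with the largest difference and a mean of at least 20 embryonic reads, and 3 on each side of the threshold. Also named were the 3 largest per list, genes with most members, and up to 5 beside a gaining row. Strands came from the GENCODE annotation by symbol, matched for 834 of 837 exons, and promoters and starts from RefSeq (GRCm38.p6). Same-numbered samples did not deviate together (correlations 0.01, 0.06 and 0.04), so numbers were not treated as pairs. Alternatives covered the threshold, filters, centring, the model and leaving out each sample.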

Additional observations from a re-analysis of the deposited data

Results flagged for a closer look

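In 3 of the named exons 1 embryonic sample was flagged as standing apart from the other 3. The Chn1 exon at chr2:73517672 held 16.7% of the gene's reads in embryonic replicate 2 and 20% in the others, which is 1 step of the coarse scale. The Ash2l exon at chr8:26941745 held 4.17% in embryonic replicate 4 and 2.94% to 3.12% in the others. The Celf2 exon at chr2:6805898 held 2.63% in embryonic replicate 2 and 2.08% to 2.13% in the others. For continuous values chance alone flags about 1 in 20 groups of this size. Shares come in steps, so that rate may not hold here, and 34 exons were examined.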

How the results depend on the processing

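The count of 837 exons depended on the rule's threshold and on the samples. A score difference of at least 1.5 gave 1456 exons and one of at least 3 gave 343. Leaving out 1 sample at a time gave 904 to 1463, the highest without adult replicate 3, of which 758 were among the 837. Fewer samples make it easier for the groups not to overlap. Asking for at least 10 rows per gene gave 702, and asking for a mean of at least 10 embryonic reads gave 773. Centring each sample's scores gave 773 (768 of them shared). Leaving out exons at 1 read in every sample, a setting chosen after seeing the data, gave 834. All 272 recomputed score differences of the 34 named exons kept their direction and stayed within the spread between replicates. When 1 sample is left out, the separation of the groups fixes the direction. Leaving 1 value out of so small a group also cannot move its mean beyond the SD. Centring moves every score difference by the same amount, so nothing is read from this count. The host genes called higher in adult numbered 204 to 233 over the alternatives run and those called lower 219 to 266. With the replicate number as a block, which left out embryonic replicate 4, 233 host genes were higher and 232 lower, and 10 splicing regulators were higher and 45 lower, so the block changed no count by over 1.5 times. Exons with a mean under 10 reads in adult samples, 243 of 837, have imprecise adult shares, and 0 cannot be told from 1 read.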
